A study of Mus musculus with 16 samples.

Results

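The insulin-like growth factor (IGF) axis was followed through 10 genes in CD11b+ brain cells of malnourished mice. The genes were taken by name, Igf1 and Igf2 (ligands), Igf1r, Igf2r, and Insr (receptors), Irs1 and Irs2 (receptor substrates), and Igfbp2, Igfbp4, and Igfbp7 (binding proteins). All 10 were found among the 24421 rows of the count table, and all 10 passed the filter on low counts, as members of the 14565 genes tested.

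IGF1 and IGF2 are secreted growth factors that act on the receptor tyrosine kinase IGF1R, which is closely related to the insulin receptor. Both receptors phosphorylate the docking proteins IRS1 and IRS2, which recruit phosphoinositide 3-kinase (PI3K) and pass the signal to AKT, FOXO factors, and mTOR. IGF2R carries IGF2 to lysosomes for degradation, and the secreted IGF-binding proteins hold the ligands in the extracellular space. In the brain, microglia and border macrophages are sources of IGF1, whereas the choroid plexus, the epithelium that secretes cerebrospinal fluid, is a main source of IGF2 and IGFBP2.

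RNA-Seq libraries came from cells that were pulled down with CD11b beads, which take microglia and other myeloid cells, and each library came from 1 mouse. Newly weaned female C57BL/6J mice were fed a standard diet (CON, n = 4) or an isocaloric diet low in protein and fat (MAL, n = 5) for 1 month, and a further set on the low protein/fat diet was also gavaged with E. coli and Bacteroidales species (MAL-BG, n = 7). CON and MAL mice were gavaged with buffer alone. Litters and cages are not given per mouse, so p values measure the spread between these samples only. The labels name cortical tissue as the source.

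Total counts were 10312703 to 13461574 for CON, 10864121 to 12819982 for MAL, and 14191791 to 18705202 for MAL-BG, so that every MAL-BG library was the larger. Lists of 12 markers were read for the cell types that such a pull-down could hold, and no marker in the table was at 0 throughout a group. Microglia markers summed to 17959.5 to 28957.5 CPM (counts scaled to a common library size) for CON, 18578.0 to 31475.1 for MAL, and 38383.0 to 51989.0 for MAL-BG. Choroid plexus markers, which CD11b+ cells should lack, summed to 10843.2 to 41749.2 CPM for CON, 5053.4 to 32900.4 for MAL, and 1483.0 to 13258.1 for MAL-BG. These libraries are mixtures, in which fewer cells of a type and less RNA per cell cannot be told apart.

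Levels of Irs2, Igf2, Igf2r, and Igfbp2 were lower in MAL-BG, and that of Igf1r was higher, than in CON and than in MAL. Irs1 passed the test against CON, where it was lower, and Igfbp4 against MAL, where it was higher. Their estimates ran in the same direction in the other comparison without passing, and the difference between comparisons was not tested, while Igf1, Insr, and Igfbp7 passed the test in neither comparison. A gene was called when its adjusted p was under 0.05 and its log2 fold change was past 0.58 in either direction (quasi-likelihood test of edgeR, Benjamini-Hochberg adjustment over all genes tested). Against CON, 1 member was called higher and 5 were called lower, where 11.4% of all genes tested were called higher and 21.7% lower. Against MAL, 2 members were called higher and 4 lower, beside 10.2% and 20.2% of all genes. Over the 10 genes the median log2 fold change was -0.93 relative to CON and -0.78 relative to MAL, beside -0.04 and -0.03 over all genes tested. Both comparisons use the same 7 MAL-BG libraries, so they are given side by side and are not independent.

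Between MAL and CON no member passed the test. Of the 10 genes 0 were called, as were 0 of 14565 genes (0%) by edgeR, with 212 genes at an unadjusted p under 0.05. DESeq2 also called 0 genes, with 241 at an unadjusted p under 0.05. The smallest unadjusted p among the 10 genes was 0.252, for Irs2, whose log2 fold change was -0.57 (SE 0.48). The adjusted p was 0.999 for each member.

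**Figure D1:**
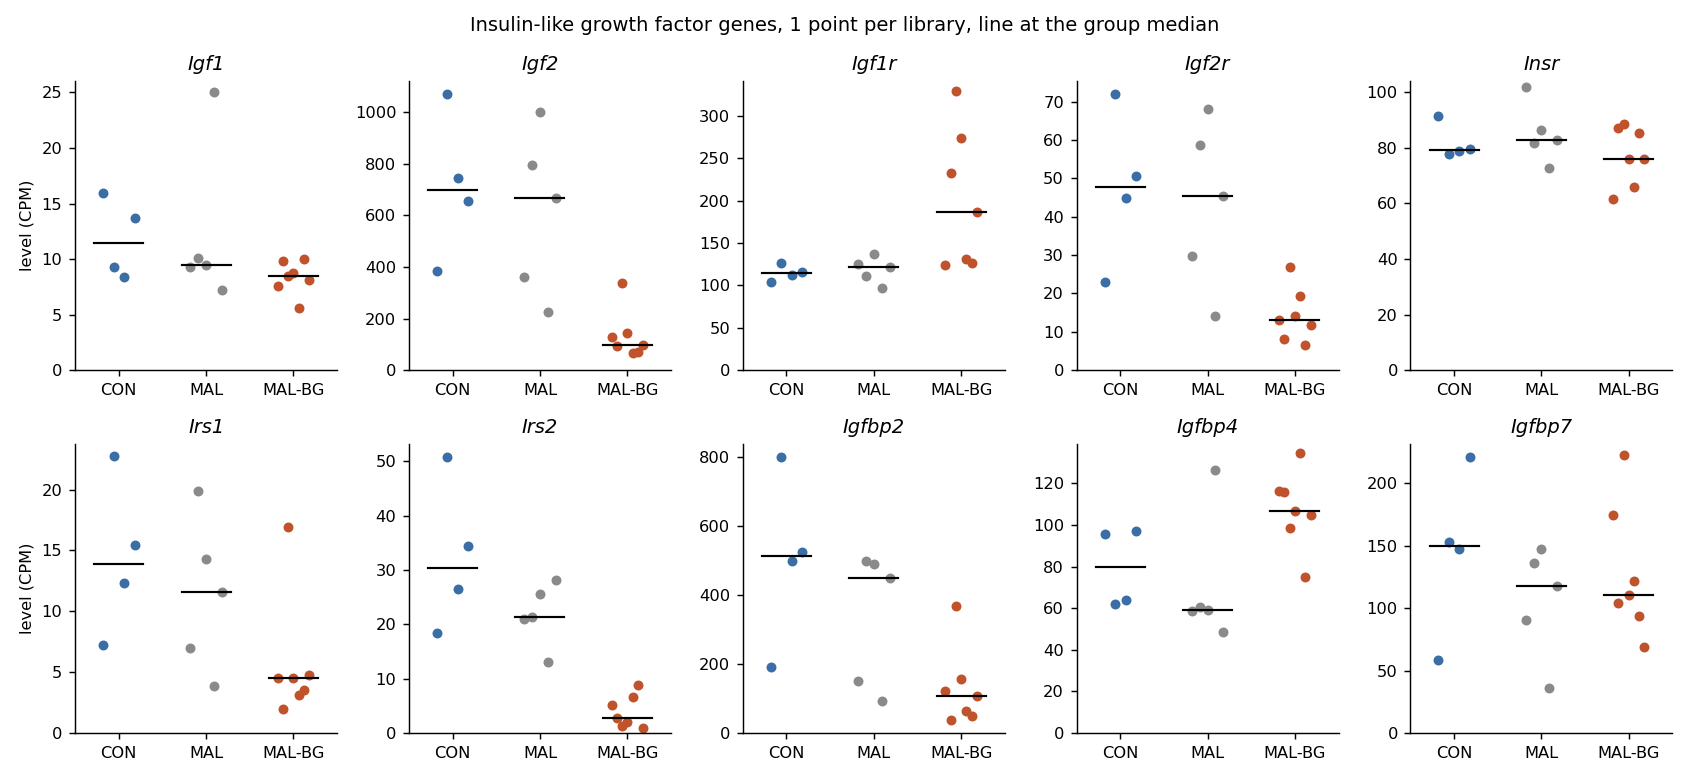
Level of each IGF gene in CPM on a linear axis from 0, with 1 point per library (CON 4, MAL 5, and MAL-BG 7 libraries) and a line at the group median. Irs2 is the member whose 7 MAL-BG points (0.965 to 8.86 CPM) all sit under the other 9, and Igf1r points reach 329.5 CPM in MAL-BG while 3 of the 7 stay within the range of the other groups.

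Per kilobase of merged exons, the binding proteins and Igf2 were the most abundant members. In CON, the mean level was 272.5 CPM per kb for Igfbp2 (SD 134.8), 124.6 for Igf2 (SD 49.6), 119.9 for Igfbp7 (SD 55.2), and 18.1 for Igfbp4 (SD 4.38). Receptors and Irs2 followed, at 6.83 for Igf1r (SD 0.57), 5.96 for Insr (SD 0.46), 5.14 for Irs2 (SD 2.19), and 5.11 for Igf2r (SD 2.17), and Irs1 and Igf1 came last at 1.58 (SD 0.71) and 1.19 (SD 0.37). The ranges of neighbours in this order overlapped over the CON libraries, apart from the steps from Igfbp7 to Igfbp4 and from Igfbp4 to Igf1r. In MAL-BG, Igfbp7 came first at 105.8 CPM per kb (SD 43.7), Igf2 stood at 23.4 (SD 16.4) beside Igfbp4 at 24.4 (SD 4.17), and Irs2 fell to the level of Irs1, at 0.624 (SD 0.476) and 0.615 (SD 0.557).

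Igf2 encodes a fetal growth factor whose expression persists in the choroid plexus and meninges after birth. It was at 383, 1070.3, 745, and 654 CPM in CON and at 363, 793, 999, 227, and 666 CPM in MAL. In MAL-BG the range was 67.2 to 337 CPM with a median of 97.9. All 7 MAL-BG libraries were under all CON libraries, and 6 of the 7 were under all MAL libraries, with MAL-BG library 3 above MAL library 4. Igf2 changed by -2.41 from CON to MAL-BG (log2, SE 0.43, edgeR adjusted p = 0.000425) and by -2.19 from MAL to MAL-BG (SE 0.42, edgeR adjusted p = 0.00066). The calls of Igf2, Irs2, and Igf2r held in both comparisons under all alternatives run, leaving out any library included.

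The log2 ratio of Igf2 to the summed counts of fibroblast and meninges markers was 0.70 ± 0.88 in CON (SD, n = 4), 0.44 ± 0.57 in MAL (n = 5), and -1.98 ± 0.61 in MAL-BG (n = 7). All 7 MAL-BG libraries, at -3.14 to -1.21, were under all 9 others, which lay between -0.59 and 1.30. MAL-BG differed by -2.68 from CON and by -2.41 from MAL (two-sided exact permutation test, p = 0.00606 and 0.00253, adjusted p = 0.0145 in both). Fibroblast and meninges markers themselves summed to overlapping levels, 162.5 to 983.7 CPM for CON, 267.7 to 593.7 for MAL, and 277.8 to 781.2 for MAL-BG. Their means were 497.2, 407.8, and 476.2 CPM, so the ratio largely repeats the change of Igf2 itself and is not separate evidence. Gene by gene, 10 of 12 had log2 fold changes below 0 against CON and 2 above, with 3 called lower. Deviations of Igf2 from group means had a Pearson r of 0.575 with this list and of 0.929 with choroid plexus markers.

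Igf1, which microglia make during development and after injury, had the lowest mean level per kilobase in CON. It was at 15.97, 9.28, 8.35, and 13.7 CPM in CON and at 9.28, 10.1, 9.46, 25.1, and 7.25 CPM in MAL. MAL-BG libraries ran from 5.64 to 9.98 CPM with a median of 8.48. MAL library 4 stood far above the rest, and the groups overlapped. Neither estimate passed, with -0.51 relative to CON (log2, SE 0.29, edgeR adjusted p = 0.167) and -0.55 relative to MAL (SE 0.27, edgeR adjusted p = 0.108), and without MAL library 4 the latter was -0.13. With library totals alone, Igf1 was called lower against MAL (-0.67).

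Relative to microglia markers, whose sums were themselves higher in MAL-BG, Igf1 was lower in that group. The log2 ratio of Igf1 counts to the summed counts of 12 microglia markers was -10.92 ± 0.47 in CON (SD, n = 4), -11.06 ± 0.52 in MAL (n = 5), and -12.42 ± 0.27 in MAL-BG (n = 7). All 7 MAL-BG libraries, at -12.73 to -12.14, were under all 9 others, at -11.64 to -10.29. MAL-BG differed by -1.49 from CON and by -1.36 from MAL (two-sided exact permutation test, p = 0.00606 and 0.00253, adjusted p = 0.0145 in both). Of these markers, 7 of 12 were called higher in MAL-BG against both groups, while Igf1 itself passed neither test. Their sums in MAL-BG, at 38383.0 CPM or more, were all above the highest of the other groups (31475.1 CPM). The ratio thus in large part repeats the rise of the markers and is not separate evidence of a change in Igf1. Border macrophage markers, another source of Igf1, summed to 859.7 to 2417.5 CPM for CON, 1033.6 to 2237.1 for MAL, and 917.2 to 1423.7 for MAL-BG. Deviations of Igf1 from group means had a Pearson r of 0.756 with that sum and of 0.517 with the sum of microglia markers, over 16 libraries that share their scaling. With the sum of early response markers r was 0.612, so the correlation was not specific to cells that make Igf1.

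Igf1r, the signalling receptor for both ligands, was higher in MAL-BG. It was at 103.5, 127, 112, and 116 CPM in CON and at 125, 112, 137, 96.7, and 121 CPM in MAL. In MAL-BG the range was 124 to 329.5 CPM with a median of 187. Libraries 2, 3, 4, and 7 of MAL-BG, at 233, 329.5, 274, and 187 CPM, were above all CON and MAL libraries, and libraries 1, 5, and 6, at 124, 131, and 126 CPM, were within the range of the others. MAL-BG exceeded CON by 0.81 on the log2 scale (SE 0.24, edgeR adjusted p = 0.0127) and MAL by 0.76 (SE 0.22, edgeR adjusted p = 0.0117). Over all genes tested, 6.17% had all 7 MAL-BG libraries above the other 9, and none of the 10 members did. The call held under all alternatives run, with log2 fold changes of 0.63 to 1.41 against CON. Of the marker lists, endothelial markers had the highest correlation with the deviations of Igf1r from group means (Pearson r = 0.665 over the 16 libraries, which share their scaling), whose part in the result was not tested.

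Insr, the insulin receptor, was at 91.4, 77.8, 78.9, and 79.6 CPM in CON and at 101.9, 81.7, 86.3, 72.7, and 82.7 CPM in MAL. Levels in MAL-BG ran from 61.4 to 88.6 CPM with a median of 76.1, and the groups overlapped. The estimates relative to CON and MAL were -0.09 (log2, SE 0.12, edgeR adjusted p = 0.565) and -0.14 (SE 0.11, edgeR adjusted p = 0.303). The sign is not settled, since scaling by mean log2 CPM gave 0.15 and 0.08, offsets for gene length and GC content gave 0.25 and 0.22, and both together gave 0.49 and 0.44, none past the fold threshold. The edgeR adjusted p was 0.00358 and 0.00467 with both. It was 0.0465 and 0.0592 with the offsets alone, and 0.355 and 0.617 with that scaling alone. Within libraries, the log2 ratio of Igf1r to Insr counts was 0.48 ± 0.22 in CON (SD, n = 4), 0.48 ± 0.14 in MAL (n = 5), and 1.29 ± 0.48 in MAL-BG (n = 7). The difference was 0.81 against CON (two-sided exact permutation p = 0.0121, adjusted p = 0.0242) and 0.82 against MAL (exact permutation p = 0.00505, adjusted p = 0.0145). Against CON it no longer passed after adjustment without CON library 1, 3, or 4 (0.71 to 0.83, exact permutation test, adjusted p = 0.0667 in each).

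Igf2r, the receptor that clears IGF2 and also carries lysosomal enzymes, fell as its ligand did. It was at 23.0, 72.1, 44.8, and 50.6 CPM in CON and at 29.7, 58.6, 68.0, 14.02, and 45.3 CPM in MAL. MAL-BG libraries ran from 6.66 to 27.02 CPM with a median of 13.03. There, 6 of 7 were under all CON libraries and 4 of 7 were under all MAL libraries, so the groups overlapped at their edges. Relative to CON the log2 fold change was -1.73 (SE 0.40, edgeR adjusted p = 0.00239), and relative to MAL it was -1.59 (SE 0.38, edgeR adjusted p = 0.00317).

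Irs2, a docking protein of the insulin and IGF1 receptors, had the largest fold change of the 10 genes. It was at 18.4, 50.7, 26.5, and 34.4 CPM in the 4 CON libraries. In the 5 MAL libraries it was at 20.9, 21.3, 25.6, 13.1, and 28.2 CPM. The MAL-BG libraries ran from 0.965 to 8.86 CPM, with a median of 2.76. Every MAL-BG library was under every CON and MAL library, a separation that 6.36% of all genes tested showed in the lower direction, and Irs2 was the 1 member that had it. In counts this was 13 to 149 reads per MAL-BG library beside 163 to 547 in the other 9. MAL-BG differed from CON by -3.02 on the log2 scale (SE 0.46, edgeR adjusted p = 0.000126) and from MAL by -2.45 (SE 0.44, edgeR adjusted p = 0.000422). Within MAL-BG, libraries 3, 4, and 7 were lowest, at 1.24, 1.99, and 0.965 CPM, and library 6 was highest. Libraries 1, 5, and 6, at 5.13, 6.67, and 8.86 CPM, were above libraries 2, 3, 4, and 7, at 0.965 to 2.76 CPM. Igf1r divided the same libraries in the other direction, at 124 to 131 beside 187 to 329.5 CPM. The other members did not divide in this way. The share of all genes tested that divided so was not counted, and the part of batch in this division was not tested.

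Irs1, the sister substrate, had a lower mean level per kilobase in CON and MAL. It was at 7.22, 22.7, 12.3, and 15.4 CPM in CON and at 6.98, 19.9, 14.3, 3.87, and 11.5 CPM in MAL. Levels in MAL-BG ran from 1.99 to 17.0 CPM with a median of 4.48, and 6 of the 7 were under all CON libraries. The exception was MAL-BG library 3, at 17.0 CPM. The change from CON to MAL-BG was -1.36 (log2, SE 0.50, edgeR adjusted p = 0.0364) and that from MAL to MAL-BG was -1.01 (SE 0.48, edgeR adjusted p = 0.0948), and the difference between these changes was not tested. The call against CON was lost when CON library 2 or 4, or any MAL-BG library other than library 3, was left out (log2 fold changes of -1.95 to -1.08 over the 11 left-out fits). It was also lost with scaling by mean log2 CPM (-1.12), with correction for length and GC content (-1.14), and with both (-0.90). Without MAL-BG library 3 or without MAL library 4, Irs1 was also called against MAL, at -1.60 and -1.25.

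The log2 ratio of Irs2 to Irs1 counts, which does not depend on how libraries are scaled, was 1.19 ± 0.10 in CON (SD, n = 4), 1.11 ± 0.67 in MAL (n = 5), and -0.59 ± 1.88 in MAL-BG (n = 7). CON libraries were at 1.34, 1.16, 1.10, and 1.15 and MAL libraries at 1.58, 0.09, 0.84, 1.75, and 1.28, while MAL-BG libraries spread from -3.74 to 1.33. MAL-BG differed from CON by -1.78 (two-sided exact permutation test, p = 0.0424, adjusted p = 0.0727 over 12 ratio tests) and from MAL by -1.70 (exact permutation p = 0.0657, adjusted p = 0.0985). Neither difference passed after adjustment, and without MAL-BG library 6 the one against CON did (-2.10, exact permutation test, adjusted p = 0.0163).

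**Figure D2:**
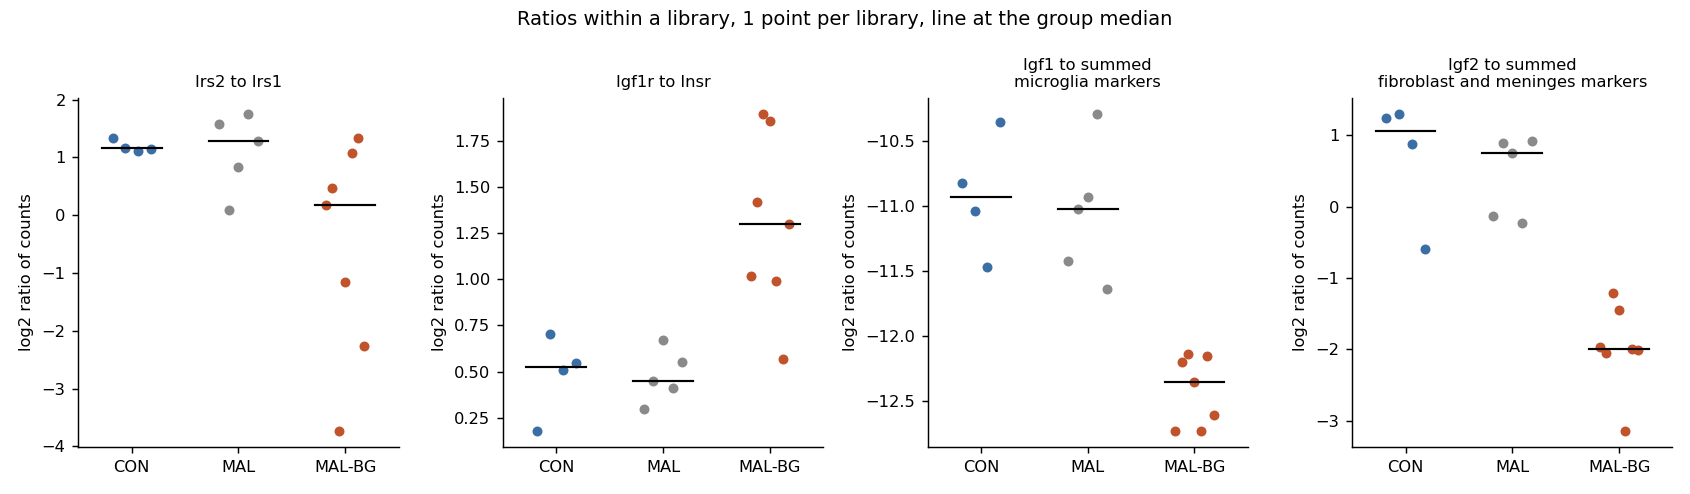
Log2 ratios of counts within a library, with 1 point per library and a line at the group median, for Irs2 to Irs1, Igf1r to Insr, Igf1 to summed microglia markers, and Igf2 to summed fibroblast and meninges markers. The 7 MAL-BG points lie under all 9 others in the Igf1 and Igf2 panels (-12.73 to -12.14 and -3.14 to -1.21), and they overlap with the others in the Irs2 and Igf1r panels.

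RefSeq promoter windows (GRCm38.p6, 250 bases before to 50 after each start) were matched for 9 of the 10 genes, which hold 13 windows. CACGTG, the E-box, which reads the same on both strands, was found in the windows of Irs1, Irs2, and Igf2r (with a second in Igf2r from base -7) and in 1 of the 2 windows of Igfbp2. These are 4 of the 5 members called lower against CON, and the fifth, Igf2, had it in none of its 4 windows. Over all 32851 promoter windows, 7.15% hold CACGTG, as do 9.33% of the 14109 windows of genes tested. TGTTTTG, a core of the insulin response element, stood in the windows of Irs1 and Irs2 and in 6.28% of all windows (both strands searched). In Irs1 it shares its first 2 letters with the last 2 of the E-box, and in Irs2 it starts 1 base after the E-box ends. TGTTTAC (FOXO core), TGACGTCA (cAMP response element), and GAGGAAGT (PU.1 core) were in no member's window, and in 3.65%, 1.79%, and 3.2% of all windows. The stretches below are shown because these 4 members, all called lower against CON, hold CACGTG, although Irs2 did not vary with the other 3 across libraries (Pearson r of -0.13 to 0.083). They lie upstream of the RefSeq start, are written 5′ to 3′ on the strand of the gene, and carry CACGTG and TGTTTTG in capitals. CACGTG and TGTTTTG were chosen as motifs after the data had been seen, and a match is a description of letters only.
Irs2, chr8:11008941-11009000, minus strand, E-box from base -44: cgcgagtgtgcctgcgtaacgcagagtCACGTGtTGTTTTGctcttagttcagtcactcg
Irs1, chr1:82291522-82291581, minus strand, E-box from base -115: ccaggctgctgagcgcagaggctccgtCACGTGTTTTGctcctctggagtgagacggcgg
Igf2r, chr17:12769722-12769781, minus strand, E-box from base -48: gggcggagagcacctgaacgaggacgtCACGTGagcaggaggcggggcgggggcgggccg
Igfbp2, chr1:72824311-72824370, plus strand, E-box from base -142: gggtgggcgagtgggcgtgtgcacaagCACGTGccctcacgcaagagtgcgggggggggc

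Igfbp2, a carrier of IGF2 in cerebrospinal fluid, was at 191.1, 799.8, 499, and 524 CPM in CON and at 150.4, 497, 491, 91.7, and 449.8 CPM in MAL. The 7 MAL-BG libraries lay at 38.8 to 369 CPM with a median of 108.0. As for Irs1, 6 of the 7 were under all CON libraries and library 3 stood apart above the other MAL-BG libraries. Its change on the log2 scale was -1.96 relative to CON (SE 0.56, edgeR adjusted p = 0.00971) and -1.38 relative to MAL (SE 0.54, edgeR adjusted p = 0.0455). The call against MAL was lost with DESeq2 (-1.36), with only the 2 groups in the fit (-1.39), with scaling by mean log2 CPM (-1.16), and without MAL library 2, 3, or 5 or any MAL-BG library other than library 3 (-1.92 to -1.16 over the 12 left-out fits).

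Igfbp4, a binding protein that restrains IGF1, moved in the other direction from Igfbp2. It was at 95.5, 61.9, 64.2, and 97.3 CPM in CON and at 58.6, 60.7, 59.2, 126.7, and 48.3 CPM in MAL. The 7 MAL-BG libraries lay at 75.2 to 134.8 CPM with a median of 107.0, and 6 of 7 were above all CON libraries. MAL-BG exceeded MAL by 0.60 on the log2 scale (SE 0.22, edgeR adjusted p = 0.0318), and its estimate relative to CON was 0.43 (SE 0.23, edgeR adjusted p = 0.139), with the difference between these estimates not tested. The call against MAL was lost without MAL library 1, 2, 3, or 5, without MAL-BG library 5, and with library totals alone (0.49). Against CON, Igfbp4 was called with scaling by mean log2 CPM (0.67) and with that scaling and offsets for length and GC content (0.66).

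Igfbp7, a matrix-bound binding protein of vessels that also binds insulin, did not pass in any comparison. It was at 58.6, 153, 147, and 221 CPM in CON, at 90.5, 136, 147, 36.1, and 117 CPM in MAL, and at 68.9 to 222.5 CPM in MAL-BG, with a median of 110.3. Relative to CON the estimate was -0.18 (SE 0.37, edgeR adjusted p = 0.717), which turned to 0.08 with scaling by mean log2 CPM, and 0.28 against MAL (SE 0.35, edgeR adjusted p = 0.541). Its deviations from group means followed mural cell (r = 0.873), endothelial (0.853), astrocyte (0.829), and fibroblast and meninges markers (0.822) over the 16 libraries. They also followed choroid plexus (0.773) and neuron markers (0.735), and ran against microglia markers (-0.805), so that they were not specific to vessel cells. Endothelial markers summed to 682.9 to 2352.3 CPM for CON, 634.2 to 1768.5 for MAL, and 1409.2 to 4364.8 for MAL-BG, and 3 of 12 were called higher against CON and 5 of 12 against MAL.

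**Figure D3:**
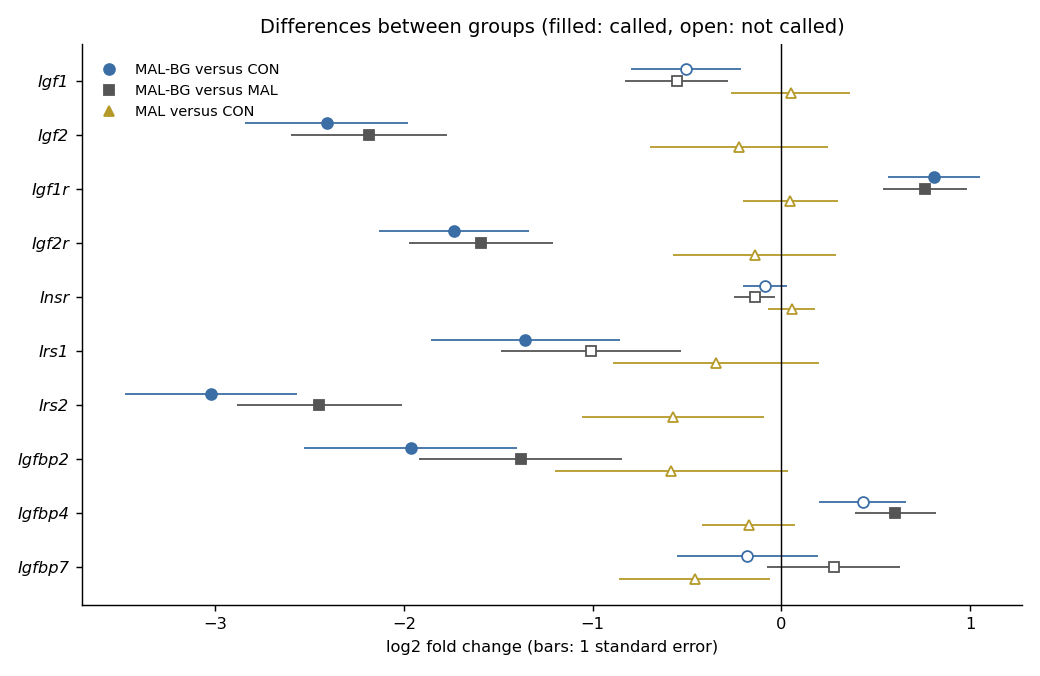
Log2 fold change of each IGF gene with bars of 1 standard error in the 3 comparisons (edgeR on all 16 libraries), filled where called. The 3 MAL versus CON estimates above 0 and the 7 below it are all open, and the signs of Insr (both MAL-BG comparisons) and of Igfbp7 (MAL-BG versus CON) turn with scaling by mean log2 CPM.

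Choroid plexus markers moved with several of these genes. All 12 were called lower in MAL-BG against CON and 11 of 12 against MAL, and their summed level was 25017.9 CPM in CON (SD 12804.1), 20695.8 in MAL (SD 12720.9), and 5071.8 in MAL-BG (SD 3918.7). Once group means were removed, log2 levels followed the choroid plexus sum over the 16 libraries with Pearson r = 0.978 for Igfbp2, 0.957 for Irs1, 0.929 for Igf2, 0.875 for Igf2r, and 0.773 for Igfbp7. The points share the library and its scaling. Irs2 did not follow the choroid plexus sum (r = -0.01), nor did Insr (r = -0.07). Igfbp2, Irs1, Igf2, and Igf2r had their highest r with choroid plexus markers, but they followed other lists as well. Their r was 0.8, 0.794, 0.818, and 0.741 with astrocyte markers and -0.621, -0.663, -0.631, and -0.82 with microglia markers. Igfbp7 was closer to mural cell markers (0.873) than to choroid plexus markers. These values do not separate choroid plexus from other cells. MAL-BG library 3, which had the most Igf2, Igf2r, Irs1, and Igfbp2 of its group, also had the highest choroid plexus sum of its group (13258.1 CPM), and its Irs2 level was 1.24 CPM. That library was not apart in choroid plexus alone. Its endothelial (4364.8 CPM), mural cell (1753.2), and fibroblast and meninges (781.2) sums were also the highest of the group. So were its neuron (84.99), astrocyte (383.8), and oligodendrocyte (1236.9) sums. Its microglia (38383.0), neutrophil (591.0), and early response (9121.9) sums were the lowest.

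Ratios to the summed choroid plexus counts, chosen after the data had been seen and given with no test, show how far each gene moved relative to that sum. Abundant markers weigh most in it, and Ttr is the only marker of this list among the paper's most abundant genes. Ttr was at -2.28 against CON (log2), where the median over the 12 markers was -2.6. The log2 ratio of Igf2 was -5.07 ± 0.19 for CON, -4.95 ± 0.35 for MAL, and -5.15 ± 0.52 for MAL-BG (SD, n = 4, 5, and 7), and the groups overlapped. Igfbp2 was at -5.65 ± 0.19, -5.92 ± 0.15, and -5.38 ± 0.27, and Igf2r at -8.99 ± 0.21, -8.78 ± 0.34, and -8.30 ± 0.69. Relative to the choroid plexus sum Irs1 was higher in MAL-BG, at -10.33 to -9.51 beside -11.12 to -10.34 over CON and MAL, with no overlap. Irs2 was at -9.53 ± 0.33 for CON, -9.61 ± 0.87 for MAL, and -10.41 ± 1.89 for MAL-BG, where it spread from -13.34 to -8.28. The part of the choroid plexus in the lower levels of Igf2, Igf2r, Irs1, and Igfbp2 was not tested further.

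**Figure D4:**
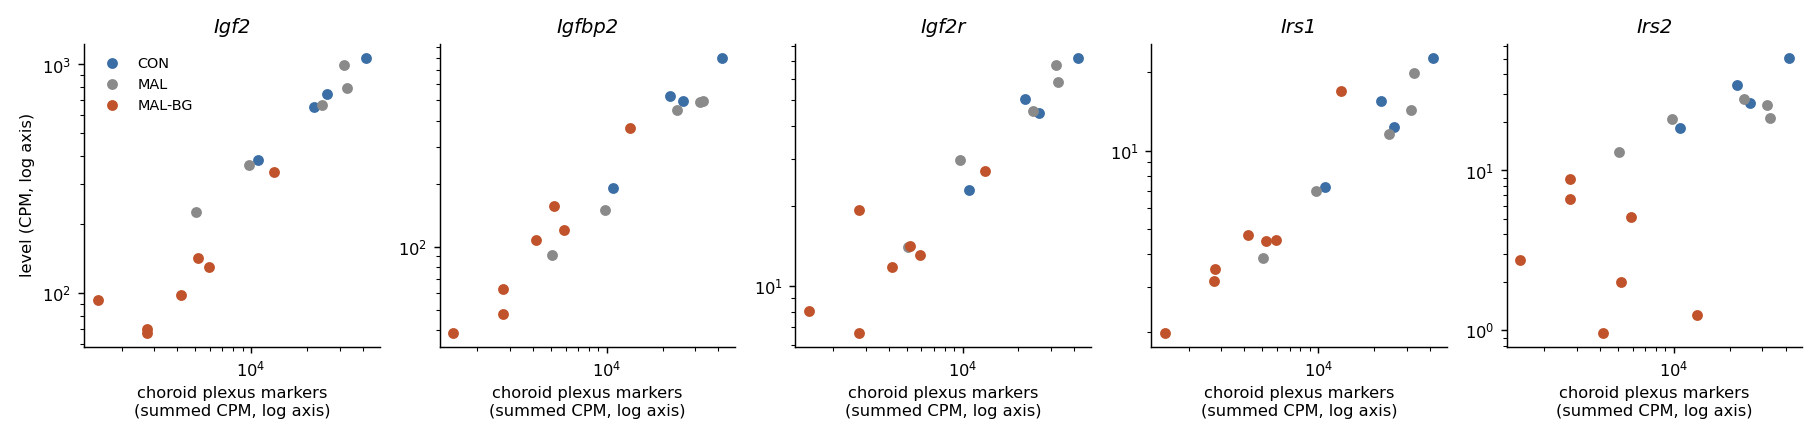
Level of 5 IGF genes (CPM, log axis) against the summed CPM of 12 choroid plexus markers (log axis), with 1 point per library coloured by group. For Igf2, Igfbp2, and Igf2r the ranges of log2 ratios to that sum overlap between groups. The mean ratio of Igf2r is -8.30 in MAL-BG beside -8.99 in CON and -8.78 in MAL. That of Igfbp2 is -5.38 beside -5.65 and -5.92. Relative to the choroid plexus sum Irs1 is higher in MAL-BG, with log2 ratios of -10.33 to -9.51 beside -11.12 to -10.34 over CON and MAL. The 7 Irs2 points of MAL-BG (0.965 to 8.86 CPM) lie under all points of the other groups in level. Their log2 ratios to that sum, at -13.34 to -8.28, overlap with those of the other groups.

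Across the 16 libraries and with group means removed, Igf2, Irs1, Igf2r, and Igfbp2 varied together. The pairs Irs1 and Igfbp2 (Pearson r = 0.946), Igf2 and Igfbp2 (0.942), and Igf2 and Irs1 (0.909) were the most alike, while Igf1 was closest to Igfbp4 (0.677). Among all genes tested, the closest to Igf2 were Itpr1, Angptl2, and Smim22 (r = 0.977 to 0.985), and the closest to Igfbp2 were 1500015O10Rik, Nsg2, and Car14 (0.985 to 0.99). Irs1 was closest to Magee1, Cfap52, and Vat1l (0.976 to 0.977), and Igf2r to Dsp, Traf4, and Ccrn4l (0.953 to 0.969). Rabif and Rybp were among the genes closest to Irs2 (0.924 and 0.918). Igf1 was closest to Mrc1 and Pf4, genes of border macrophages, and to Gm4944 (0.876 to 0.905). For Igf1r these were Nmt2, Dusp18, and Tshz1 (0.917 to 0.94), for Insr Tbrg3, Birc6, and Zcchc14 (0.874 to 0.894), for Igfbp4 Paox, 3000002C10Rik, and Cbx8 (0.857 to 0.868), and for Igfbp7 Caskin2, Sod3, and Myo1d (0.97 to 0.978). These r values are the highest of all genes tested, and the points share library and scaling.

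Of 55 other genes of the pathway, 47 were tested and 8 (Insrr, Igfbp1, Igfals, Pappa, Pappa2, Stc2, Igf2bp1, and Irs4) were below the filter. Against CON 3 were called higher and 7 lower, and against MAL 1 higher and 5 lower. This is a smaller share in each direction than over all genes tested (11.4% and 21.7%, 10.2% and 20.2%). With scaling by mean log2 CPM, 6 were higher and 4 lower against CON, and 8 higher and 3 lower against MAL. Their median log2 fold changes with TMM scaling were -0.14 and -0.089, and 0 were called in MAL against CON (edgeR, with 0 also by DESeq2). None of the other ligands, binding proteins, mRNA-binding proteins of Igf2, and adaptors that were tested was called in either MAL-BG comparison. In both comparisons 6 genes were called, Foxo1 higher and Socs3, Foxo3, Tsc1, Tsc2, and Mtor lower. The other 4 calls were against CON, and these genes were picked for naming after their values had been seen. Pik3ca, a catalytic subunit of PI3K, and Inpp5d, a phosphatase of its lipid product, were higher by 0.68 and 0.62 (log2, edgeR adjusted p = 0.00611 and 0.00955), and Phlpp1, a phosphatase of AKT, and Bad, which promotes cell death, were at -0.60 and -1.16 (edgeR adjusted p = 0.0185 and 0.0106).

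Socs3, a feedback inhibitor that binds cytokine and insulin receptors, had the largest change among them. It was at 953.8 to 1853.1 CPM for CON (median 1035.1), 1028.6 to 1693.7 for MAL (median 1278.3), and 129.1 to 386.8 for MAL-BG (median 285). Its MAL-BG libraries were all under the other 9, as for 6.36% of all genes tested. Socs3 changed by -2.13 relative to CON (log2, SE 0.24, edgeR adjusted p = 1.22e-05) and by -2.23 relative to MAL (SE 0.23, edgeR adjusted p = 8.35e-06). Socs3 is also induced rapidly by stimulation, and markers of early response summed to 19671.5 to 38880.7 CPM for CON, 21098.9 to 45021.8 for MAL, and 9121.9 to 25437.5 for MAL-BG, with 6 of 12 called lower against CON and 8 of 12 against MAL. The part of that response in the level of Socs3 was not tested.

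Foxo1 and Foxo3, transcription factors that insulin and IGF signalling keep out of the nucleus, went in opposite directions. Foxo1 was at 44.5 to 50.3 CPM for CON (median 47.5), 43.9 to 49.6 for MAL (median 48.8), and 57.2 to 107.7 for MAL-BG (median 75). Foxo3 was at 23.8 to 27.9 CPM for CON (median 26.4), 23.7 to 31.4 for MAL (median 28.1), and 3.17 to 16.7 for MAL-BG (median 5.94). The MAL-BG libraries overlapped with no other library for either gene. Of all genes tested, 6.17% were separated in this way in the higher direction and 6.36% in the lower. Log2 fold changes were 0.79 and 0.80 for Foxo1 (SE 0.14 and 0.13, edgeR adjusted p = 0.000438 and 0.000255) and -1.57 and -1.64 for Foxo3 (SE 0.31 and 0.29, edgeR adjusted p = 0.000777 and 0.000425) against CON and MAL.

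Mtor, the kinase of the growth complexes downstream of AKT, fell from medians of 56.1 CPM in CON and 63.6 in MAL to 24.7 in MAL-BG. Its MAL-BG libraries ran from 18.5 to 47.7 CPM, all under the other 9, as for 6.36% of all genes tested. The changes were -0.97 relative to CON and -1.06 relative to MAL (log2, SE 0.19 and 0.18, edgeR adjusted p = 0.000673 and 0.000239). With offsets for length and GC content combined with scaling by mean log2 CPM, the Mtor call was lost in both comparisons (-0.43 and -0.55). Tsc1 and Tsc2, whose complex restrains mTOR, fell by less, at -0.67 and -0.69 against CON and -0.68 and -0.60 against MAL (edgeR adjusted p of 0.000768 to 0.00226). With scaling by mean log2 CPM or offsets for length and GC content, neither of the 2 passed the fold threshold (-0.46 to -0.33), and with both corrections they were at -0.16 to -0.11. The call of Tsc1 against CON was also lost without CON library 1 (-0.52), and that of Tsc2 without MAL-BG library 7 (-0.57). Against MAL, Tsc2 also fell short of the fold threshold with RLE scaling and with DESeq2 (-0.57 in each), and without MAL-BG library 2, 3, 4, or 7 (-0.56 to -0.48). Foxo3, Mtor, and Tsc2 divided the MAL-BG libraries as Irs2 did, with libraries 1, 5, and 6 above libraries 2, 3, 4, and 7. Levels were 11.9 to 16.7 beside 3.17 to 5.94 CPM for Foxo3 and 29.4 to 47.7 beside 18.5 to 24.7 for Mtor. For Tsc2 they were 58.0 to 70.5 beside 39.55 to 44.1 CPM. Foxo1, Socs3, and Tsc1 did not divide in this way. Among the other pathway genes, Shc1, Sh2b2, Akt1, Inppl1, and Rheb divided the libraries in the same direction. Pik3ca, Gab1, Grb10, Bad, and Stc1 divided them in the other direction, and these genes were named after their values had been seen. The share of all genes tested that divided so was not counted.

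**Figure D5:**
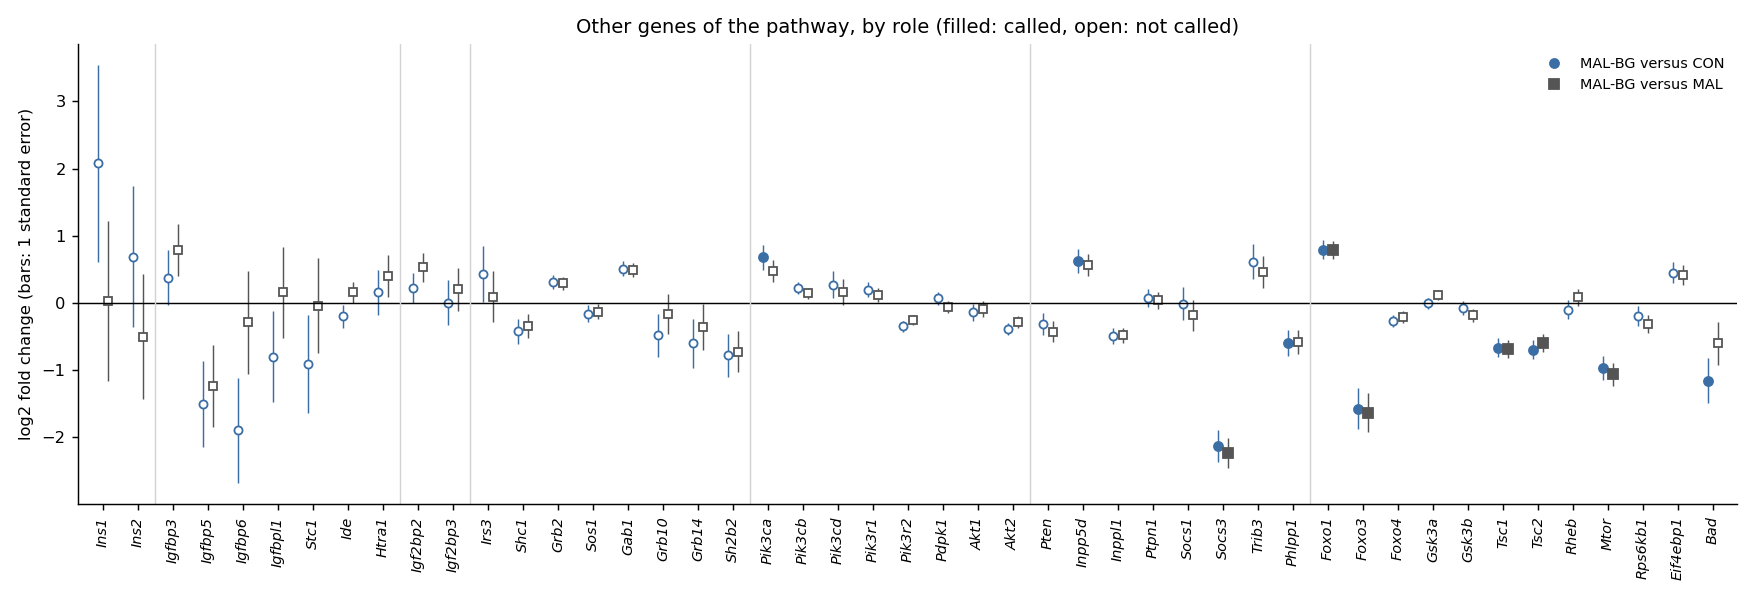
Log2 fold change with bars of 1 standard error of the 47 other pathway genes tested, for MAL-BG relative to CON (circles) and to MAL (squares), filled where called and ordered by role from ligands (left) to effectors (right). Filled points in both comparisons are those of Socs3, Foxo1, Foxo3, Tsc1, Tsc2, and Mtor, at -2.23 to 0.80, and the calls of Tsc1 and Tsc2 were lost with scaling by mean log2 CPM, as was that of Mtor when offsets for length and GC content were added.

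In the GENCODE annotation of GRCm38, the 10 genes are protein coding and lie on 7 chromosomes. Igf1 is at chr10:87858265-87937042, Igf2 at chr7:142650766-142666816, Igf1r at chr7:67952827-68233668, Igf2r at chr17:12682406-12769664, and Insr at chr8:3122061-3279617. Irs1 is at chr1:82233101-82291416, Irs2 at chr8:10984681-11008458, Igfbp2 at chr1:72824503-72852474, Igfbp4 at chr11:99041244-99054392, and Igfbp7 at chr5:77349240-77408041. Counts are of exonic reads, and some exons are shared with other genes. Igf2 shares 62.8% of its exonic bases with Gm49394 on the same strand and 1.71% with Igf2os on the other, Irs1 shares 30.9% with Gm9747, Igfbp7 7.03% with Polr2b, and Irs2 2.56% with 9530052E02Rik, all on opposite strands. The strand option of the counting is not given in the sources used here, so how reads of these exons were assigned is uncertain. Igf2os, 9530052E02Rik, and Polr2b have a row in the count table, whereas Gm49394 and Gm9747 have none under these names. For Gm49394, on the same strand as Igf2, the strand option would not separate the reads.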

How the data were processed

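RNA-Seq reads of CD11b+ cells were aligned to GRCm38 with STAR and counted per gene with HTSeq by the authors, who deposited 1 table of raw counts that were not normalized (24421 rows, 16 libraries, 0 columns left out). The labels list HTSeq 2.5 and cortical tissue, whereas the methods describe whole cerebra. The strand option and annotation used in counting are not given in the sources used here. Groups come from the column names, and library numbers follow column order. The study used a batch term, and sample titles carry letters and numbers, but the numbered count columns could not be matched to titles, so no batch was fitted and the part of batch in any difference was not tested.

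A gene entered the tests if 4 or more libraries each held over 10 counts of it, which 14565 genes did. A single edgeR 4.0.16 quasi-likelihood model (R 4.3.3, TMM scaling) covered the 3 groups, with Benjamini-Hochberg adjustment of its p values over every gene tested. To be called, a gene needed an adjusted p below 0.05 together with a log2 fold change beyond 0.58 up or down. CPM used TMM-scaled library sizes, and levels per kb used merged exons of GENCODE M21. Correlations used log2 CPM (prior count 2) as deviations from group means. Ratios of counts (0.5 added) were compared with two-sided exact permutation tests in scipy 1.17.1 (12 tests, Benjamini-Hochberg adjustment). Replicates differed by more than sampling noise (the lowest chi-square of a pair, divided by its degrees of freedom, was 9.85). The edgeR test was tested on simulated data.

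Alternatives were RLE, upper-quartile, mean log2 CPM, and no scaling, offsets for gene length and GC content (14023 genes, 96.3%, had both), DESeq2 1.42.0, other filters, 2 groups at a time, thinning to 1 depth, no fold threshold, other pseudocounts, and leaving out each library. Text names all members, other pathway genes called in both MAL-BG comparisons, and the 3 genes most like each member, except that results for some genes are not reported here and the pathway list was counted without them. Members, gene lists, and marker lists were chosen with earlier results of these data known. Called lower in MAL-BG were 11 of 12 neuron markers in both comparisons, 6 and 7 of 12 astrocyte markers, 6 and 7 of 12 monocyte markers, and 2 and 3 of 12 border macrophage markers against CON and MAL. Higher were 9 of 11 neutrophil markers in both, and 3 and 4 of 12 oligodendrocyte markers, with 1 lower in each. Fibroblast and meninges markers had 3 and 4 of 12 lower and 0 and 1 higher, and mural cell markers 2 and 3 lower and 0 and 2 higher.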

Additional observations from a re-analysis of the deposited data

Results flagged for a closer look

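In 42 groups of values (10 genes and 4 ratios in 3 groups), 6 libraries stood apart, in that the gap to the nearest library of the group was a larger part of the group's range than Dixon's 95% critical value. Chance alone flags about 5% of groups. MAL library 4 stood apart for Igf1 (25.06 CPM, gap of 0.837 of the range) and for Igfbp4 (126.7 CPM, 0.842). The same library had the lowest choroid plexus sum (5053.4 CPM) and the highest early response sum (45021.8 CPM) among the MAL libraries. Its border macrophage sum (2237.1 CPM) and microglia sum (31475.1 CPM), of cells that make Igf1, were also the highest of the MAL libraries. MAL-BG library 3 stood apart for Igf2 (337.4 CPM, 0.72), Irs1 (16.96 CPM, 0.816), and Igfbp2 (369.0 CPM, 0.646), and had the highest choroid plexus sum of its group (13258.1 CPM). Its endothelial, mural cell, fibroblast and meninges, neuron, astrocyte, and oligodendrocyte sums were also the highest of the group. Its microglia sum was the lowest (38383.0 CPM). CON library 1 stood apart for Insr (91.45 CPM, 0.873). The part of these marker levels in the stray values was not tested.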

How the results depend on the processing

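TMM scaling left the median of all genes at -0.04 against CON and -0.03 against MAL. Library totals alone moved it to -0.17 and -0.16, and mean log2 CPM scaling to 0.21 and 0.19, so that the share of calls that were higher went from 34.4% and 33.4% to 22.4% and 20.1%, or to 57.8% and 58.3% (57.7% and 57.6% with length and GC offsets added). Calls among the 10 members stayed at 5 to 6 against CON and 5 to 6 against MAL over 12 alternatives each, at 5 to 6 and 4 to 7 without single libraries, and at 0 for MAL against CON throughout. Counts of calls do not name genes, and the calls that were lost or gained are given beside each gene.

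Signs turned as follows. With mean log2 CPM scaling, Insr was at 0.15 against CON and 0.081 against MAL, and Igfbp7 at 0.078 against CON. With length and GC offsets, Insr was at 0.25 and 0.22 and Igf1 in MAL against CON at -0.021. With both, Insr was at 0.49 and 0.44. Without single libraries, ranges crossed 0 against CON for Insr (-0.13 to 0.0097) and Igfbp7 (-0.46 to 0.084), and, for MAL against CON, for Igf1 (-0.39 to 0.22), Igf2 (-0.48 to 0.033), Igf1r (-0.017 to 0.11), Igf2r (-0.38 to 0.12), and Insr (-0.023 to 0.10). The ratios crossed 0 in MAL minus CON for Irs2 to Irs1 (-0.24 to 0.17), Igf1r to Insr (-0.11 to 0.065), and Igf1 to microglia markers (-0.33 to 0.052). None of these MAL and CON values passed a test in any fit.

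In MAL-BG minus CON, the ratio of Igf1r to Insr ranged from 0.71 to 0.93 and that of Irs2 to Irs1 from -2.10 to -1.25 without single libraries. Other pathway genes called rose from 10 to 17 against CON and from 6 to 16 against MAL with no fold threshold, since more genes could pass, and to 11 against MAL with mean log2 CPM scaling, whose cause was not tested. Without single libraries they numbered 5 to 10 against MAL, with 10 without MAL-BG library 5, which had the highest neutrophil sum.

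No paired analysis was possible because the running numbers of the columns match no sample title, so the replicate numbers of the labels could not be assigned to libraries. All alternatives listed were run. Depth limited Irs2 most, at 13 counts in its lowest library, and thinning every library to the smallest total changed no call among the 10 genes.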
